A study of Mus musculus with 12 samples.

Results

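The comparison described here set the cortex of mice that carried P301S tau together with a single working allele of Tia1 (P301S Tia1+/-) against the cortex of mice with a single working allele of Tia1 and no tau transgene (Tia1+/-). It addressed what P301S tau changed in the transcriptome when Tia1 was already reduced. The libraries were chosen by their titles, 3 per genotype, which gave 6 of the 12 libraries of the series, and all 24062 gene symbols of the count table were considered. All mice were 9 months old, and each library was made from the cortex RNA of a single mouse. The other 6 libraries came from WT mice and from PS19 mice, which carry P301S tau with both Tia1 alleles.

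The P301S tau transgene of PS19 mice is a human MAPT cDNA driven by the mouse Prnp promoter. The P301S change lies in the microtubule-binding part of tau and favours its aggregation, and PS19 mice develop neurofibrillary tau pathology and neuron loss with age. TIA1 is an RNA-binding protein that nucleates stress granules, in which untranslated mRNAs are held during stress, and it also takes part in splicing. The Tia1 mutant allele was kept on a C57BL/6J background and the PS19 line on a mixed B6;C3 background. The mice came from crosses between these lines.

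The count table held no row for the human transgene, so the presence of P301S tau could not be read from it. The Tia1 gene (chr6:86404219-86433405 on GRCm38) had 72.6, 73.5 and 77.8 CPM (counts scaled to an equal effective library size) in the 3 P301S Tia1+/- libraries and 61.4, 62.8 and 79.8 CPM in the 3 Tia1+/- libraries. These ranges overlapped. The 3 WT libraries, with both Tia1 alleles, had 93.8, 76.8 and 75.4 CPM, a range that the Tia1+/- libraries also reached, so the Tia1 level does not check the labels. The endogenous tau gene Mapt had 336, 357 and 353 CPM in P301S Tia1+/- and 502, 455 and 344 CPM in Tia1+/-, and Prnp, whose promoter drives the transgene, had 1500, 1535 and 1404 CPM and 1922, 1664 and 996 CPM. In both genes the ranges of the groups overlapped, and neither passed in the fit of 12 or of 6 libraries. In edgeR's fit of the 5 libraries without Tia1+/- replicate 3 both were lower in P301S Tia1+/-, with adjusted p of 0.00165 and 0.0309. Mapt had 439, 462 and 457 CPM in PS19 and 256, 369 and 413 CPM in WT. Prnp had 2124, 2018 and 2158 CPM in PS19 and 1334, 1879 and 1700 CPM in WT. Every PS19 library thus lay above every WT library in both genes. What these values mean for the labels was not tested. The deposited genotype entries of the 6 libraries name each other's genotype, whereas the titles and the column names of the count table do not, and the titles were followed. Were the entries right, every difference between P301S Tia1+/- and Tia1+/- given here would have the opposite sign, and the differences of effects would take other values. The names P301S Tia1+/- and Tia1+/- therefore mean the libraries labelled so in their titles.

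Xist, the RNA that silences an X chromosome in female cells, had 274, 261 and 317 CPM in P301S Tia1+/- and 249, 217 and 367 CPM in Tia1+/-, and the Y-linked genes Ddx3y, Uty, Eif2s3y and Kdm5d had at most 3 counts in any of these 6 libraries. The PS19 and WT libraries had the reverse pattern, with at most 13 counts of Xist and at least 472 counts of each of the 4 Y-linked genes. The X-linked gene Kdm6a had 79.7, 70.7 and 80.2 CPM in P301S Tia1+/- and 66.8, 66.9 and 81.0 CPM in Tia1+/-. It had 47.3, 54.4 and 49.0 CPM in PS19 and 51.2, 46.95 and 42.7 CPM in WT. X-linked Eif2s3x and Ddx3x were also higher in each of the 6 libraries than in any other, and Kdm5c overlapped. By Xist and the Y-linked genes the 6 libraries read as female and the others as male. The libraries set against each other here were therefore alike in these genes. The methods of the study describe the mice analysed as male unless noted. The paper ascribes higher Xist and lower Y-linked RNA in Tia1+/- than in WT cortex to Tia1 heterozygosity. It reports PCR of separate 6-month-old mice for it, with both changes in males and higher Xist in Tia1+/- females too. The Y-linked genes were undetectable in its females.

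Library totals ran from 14941823 to 16374226 counts in the 6 libraries. Markers of tissue outside the cortex differed between them, as shown in the plot of marker lists by library. Summed over 14 genes of olfactory bulb neurons, the level was 1286, 1088 and 1263 CPM in P301S Tia1+/- and 72.7, 95.7 and 627 CPM in Tia1+/-, against 111, 172 and 99.7 CPM in PS19 and 1688, 331 and 109 CPM in WT. The bulb level was thus high in every P301S Tia1+/- library, intermediate in Tia1+/- replicate 3, low in the other Tia1+/- libraries, and high in WT replicate 1. The bulb list had no gene at 0 in any P301S Tia1+/- library and at most 2 in a Tia1+/- library. Summed over 12 genes of olfactory sensory axons, the level was 699.5, 822 and 838 CPM in P301S Tia1+/- and 275, 281 and 785 CPM in Tia1+/-. Summed over 16 genes of striatal medium spiny neurons, it was 372, 377 and 456 CPM in P301S Tia1+/- and 362, 356 and 3219 CPM in Tia1+/-, so that replicate 3 of Tia1+/- stood apart. The ribosomal RNA gene Rn45s took 0.145%, 0.143% and 0.181% of the counts in P301S Tia1+/- and 1.0%, 0.172% and 1.03% in Tia1+/-. In bulk tissue, fewer cells of a type and less RNA per cell cannot be told apart.

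**Figure D1:**
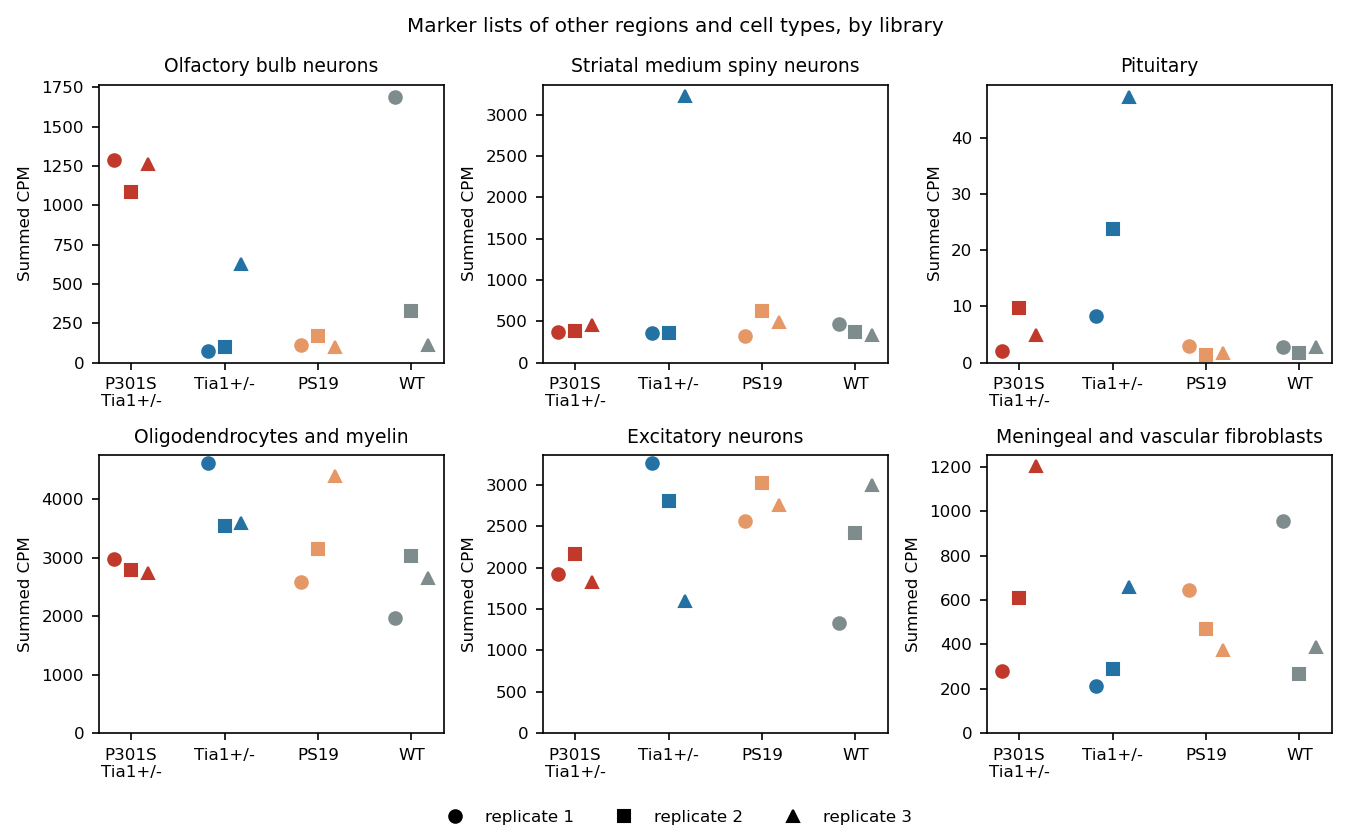
Summed CPM of 6 marker lists (y axes, from 0) in the 4 groups (x axes), with 1 point per library and a symbol per replicate number. The olfactory bulb list lies between 1088 and 1286 CPM in the P301S Tia1+/- libraries and between 72.7 and 627 CPM in the Tia1+/- libraries, and the striatal list reaches 3219 CPM in Tia1+/- replicate 3 alone.

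Across all genes, no gene passed the test between P301S Tia1+/- and Tia1+/- mice. In a fit of all 12 libraries with edgeR's quasi-likelihood test, 0 of 15440 genes (0%) passed at an adjusted p of 0.05. At an unadjusted p under 0.05 there were 2405 genes (15.6%), of which 1377 were higher and 1028 lower in P301S Tia1+/-. The smallest adjusted p was 0.066, for Klhdc8b. Every P301S Tia1+/- library lay above every Tia1+/- library for 2297 genes (14.9%) and below for 1710 (11.1%), and the median log2 fold change over all genes was 0.01. When the 6 libraries were fitted on their own, 334 of 15038 genes (2.22%) passed, 218 higher (1.45%) and 116 lower (0.771%), and 145 (0.964%) passed with the replicate number as a block, 119 higher (0.791%) and 26 lower (0.173%). DESeq2 called 403 of 15946 genes (2.53%) in the 12 libraries, 234 higher (1.47%) and 169 lower (1.06%).

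The count turned on single libraries. Without Tia1+/- replicate 3, the library with the striatal markers, the fit of the remaining 5 libraries called 4150 of 15292 genes (27.1%), 2158 of them higher (14.1%), and these held all 334 genes with the same direction. Without any other of the 6 libraries it called between 0 and 6. In the fit of 12 libraries, leaving out Tia1+/- replicate 3 gave 0 genes with 3589 at an unadjusted p under 0.05, and leaving out WT replicate 1, the other library rich in bulb markers, gave 956, 576 higher and 380 lower. The genes called in the fit of 6 libraries were also compared between WT replicate 1 and WT replicate 3, which differed in bulb level and carry no tau transgene. Of the 218 genes higher in P301S Tia1+/-, 215 (98.6%) were higher in WT replicate 1 than in WT replicate 3, and of the 116 lower genes 113 (97.4%) were lower in it. Over all genes tested 51.7% were higher and 48.3% lower. Each side of this comparison is 1 library, and the cause of the differences was not tested. With the bulb level of each library as a covariate, an alternative added after seeing the data, the fit of 12 libraries called 709 genes, 411 of them higher, and with the bulb and striatal levels it called 91, 45 of them higher. Among the 6 libraries the bulb level went with the genotype, and the parts of both in a difference cannot be told apart within them.

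The 24 genes with the smallest p were described further, 12 in each direction, among those whose groups did not overlap and whose mean was at least 1 CPM. Their adjusted p lay between 0.066 and 0.175 in the fit of 12 libraries, and 23 of them passed in the fit of 6 libraries, all but Dpy19l3, with 8 passing under the replicate block. They were chosen for their p in this contrast, so these counts describe the choice.

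**Figure D2:**
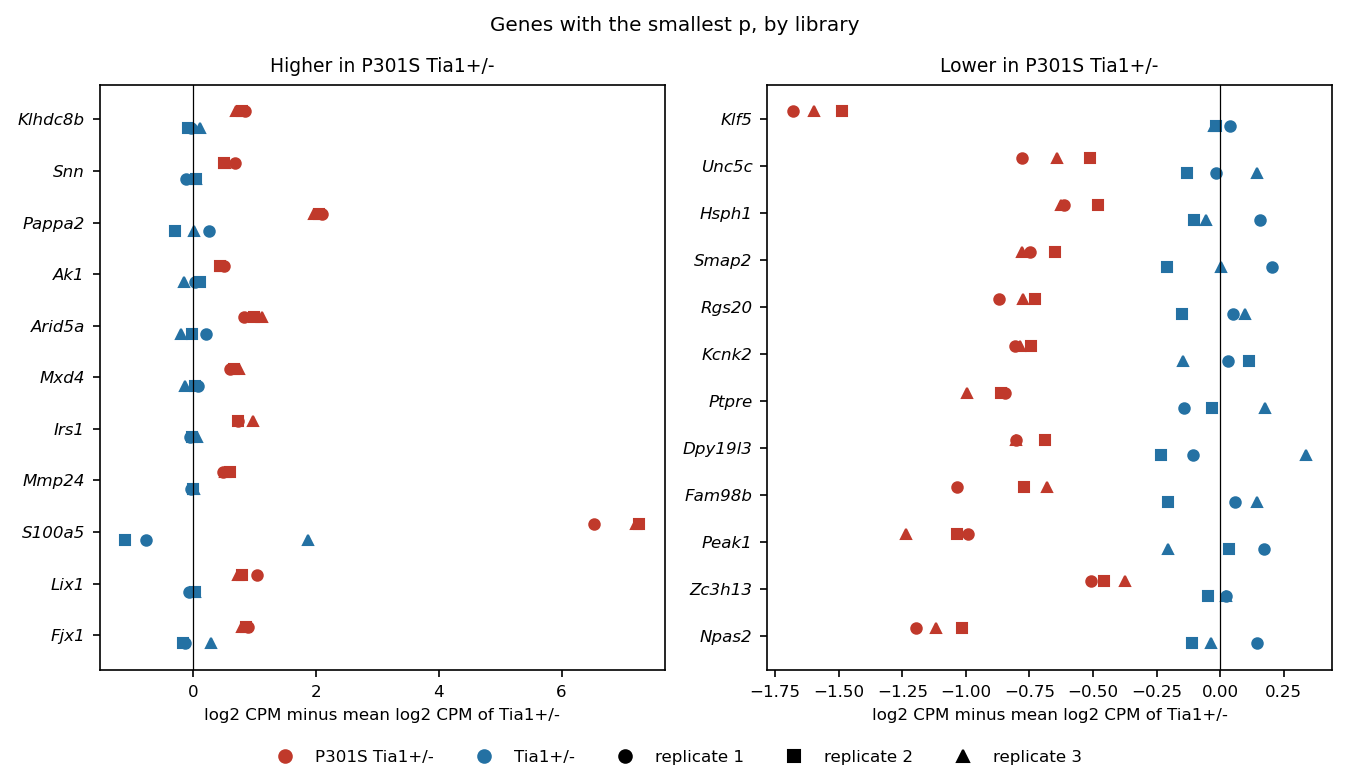
For 23 of the 24 genes (y axes), log2 CPM of each of the 6 libraries minus the mean log2 CPM of the Tia1+/- libraries (x axes), with colour for the group and a symbol for the replicate number. The groups do not overlap in any of the genes plotted, and S100a5 lies farthest from 0, with a log2 fold change of 6.35.

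Klhdc8b (chr9:108447636-108461581), a kelch-repeat protein of the midbody in dividing cells, had 35.2, 33.95 and 31.9 CPM in P301S Tia1+/- and 19.1, 18.5 and 21.1 CPM in Tia1+/-. Every P301S Tia1+/- library lay above every Tia1+/- library, with a log2 fold change of 0.78, SE 0.09. Snn, which encodes the small membrane protein stannin, had 386, 338 and 345 CPM against 221, 249 and 249 CPM, a log2 fold change of 0.57, SE 0.09. Ak1, an adenylate kinase that balances adenine nucleotides, had 173, 165 and 168 CPM against 124, 132 and 111 CPM, a log2 fold change of 0.46, SE 0.08. The spread within a group was small beside the difference for these 3 genes. In WT, Klhdc8b had 23.6, 21.1 and 22.2 CPM and Snn had 268, 224 and 236 CPM.

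Pappa2, a protease that cleaves insulin-like growth factor binding proteins, had 5.16, 4.98 and 4.70 CPM in P301S Tia1+/- and 1.45, 0.985 and 1.22 CPM in Tia1+/-, a log2 fold change of 2.01, SE 0.33. Irs1, the adaptor that carries signals from the insulin and insulin-like growth factor receptors, had 61.8, 62.1 and 73.2 CPM against 36.02, 36.7 and 38.9 CPM, a log2 fold change of 0.82, SE 0.15. Pappa2 was also higher in PS19 (3.27, 5.52 and 4.64 CPM) than in WT (2.001, 1.78 and 0.760 CPM), whereas Irs1 was lower in PS19 (36.3, 34.6 and 39.7 CPM) than in WT (70.8, 51.4 and 45.5 CPM). Mxd4, which competes with MYC for its partner MAX, had a log2 fold change of 0.67, SE 0.12, and Arid5a, a protein that binds AT-rich DNA and some mRNAs, had a log2 fold change of 0.97, SE 0.17.

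Mmp24, a membrane-bound metalloproteinase, Lix1 and Fjx1, a secreted regulator of dendrite extension, had log2 fold changes of 0.54, SE 0.10, of 0.86, SE 0.16 and of 0.84, SE 0.16. All 12 higher genes were higher in WT replicate 1 than in WT replicate 3.

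S100a5, a calcium-binding protein of olfactory sensory neurons, was the gene of this set that differed most. It had 64.8, 108 and 104 CPM in P301S Tia1+/- and 0.414, 0.329 and 2.58 CPM in Tia1+/-, a log2 fold change of 6.35, SE 1.14. The WT libraries had 102, 12.2 and 5.63 CPM and the PS19 libraries 0.312, 0.560 and 0.0602 CPM. WT replicate 1 lay within the range of the P301S Tia1+/- libraries, and the other WT libraries lay below it. The cause was not tested.

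Among the 12 lower genes, Klf5 (chr14:99298691-99315036), a zinc finger transcription factor, had 1.57, 1.80 and 1.67 CPM in P301S Tia1+/- and 5.17, 4.99 and 4.96 CPM in Tia1+/-. Its log2 fold change was -1.58, SE 0.23, and the 3 libraries of each group lay close together. Unc5c, a netrin receptor that mediates axon repulsion, had 38.9, 46.9 and 42.8 CPM against 66.1, 61.03 and 73.9 CPM, a log2 fold change of -0.64, SE 0.10. Kcnk2, a background potassium channel opened by stretch and lipids, had 34.6, 36.2 and 35.1 CPM against 61.96, 65.7 and 54.8 CPM, a log2 fold change of -0.78, SE 0.13. In WT, Klf5 had 2.80, 4.48 and 4.94 CPM, Unc5c 46.02, 52.9 and 51.03 CPM and Kcnk2 34.2, 43.1 and 36.5 CPM, lowest in replicate 1 for each.

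Ptpre, a protein tyrosine phosphatase, had 21.1, 20.9 and 19.04 CPM against 34.4, 37.1 and 42.9 CPM, and Rgs20, which shortens signalling by Gi-type G proteins, had 9.24, 10.2 and 9.87 CPM against 17.5, 15.2 and 18.1 CPM. Peak1, a cytoskeleton-associated pseudokinase, had 29.2, 28.3 and 24.7 CPM against 65.5, 59.5 and 50.3 CPM, and Smap2, which stimulates the GTPase activity of Arf proteins in vesicle traffic, had 53.8, 57.6 and 52.7 CPM against 104, 78.2 and 90.5 CPM. Their log2 fold changes lay between -1.09 for Peak1 and -0.73 for Smap2. Fam98b, a subunit of the tRNA ligase complex, and Zc3h13, a subunit of the complex that methylates adenosine in mRNA, had log2 fold changes of -0.83, SE 0.15 and -0.44, SE 0.09. The C-mannosyltransferase gene Dpy19l3 had 30.9, 33.5 and 30.9 CPM against 50.1, 45.98 and 68.3 CPM.

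Hsph1 (chr5:149614287-149636376) encodes an Hsp110 chaperone that exchanges nucleotide on Hsp70 and helps to pull apart protein aggregates. It had 219, 239.9 and 217 CPM in P301S Tia1+/- and 373, 312 and 322 CPM in Tia1+/-, a log2 fold change of -0.58, SE 0.09, with an adjusted p of 0.146 in the fit of 12 libraries and 0.0373 in the fit of 6. With the replicate block the adjusted p was 0.0667. The WT libraries had 435, 384 and 419 CPM, highest in the replicate with the high bulb level, and the PS19 libraries had 323, 330.0 and 325 CPM, below every WT library. The log2 fold change of PS19 against WT was -0.34, SE 0.09, of the same sign as with Tia1+/-. Of the 116 genes lower in the fit of 6 libraries, Fam19a2 and Rgs17 were the others that were higher in WT replicate 1 than in WT replicate 3. Of the 218 higher genes, 6330403A02Rik, Acer2 and Oprd1 were the 3 that were lower in it. These exceptions were singled out after their values were seen.

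Acer2, an alkaline ceramidase of the Golgi, had 13.6, 12.1 and 13.5 CPM in P301S Tia1+/- and 7.31, 6.70 and 7.28 CPM in Tia1+/-, against 8.88, 7.44 and 8.90 CPM in WT. Oprd1, the delta opioid receptor, had 37.5, 36.5 and 39.8 CPM against 28.1, 27.1 and 25.3 CPM, and 28.1, 31.2 and 34.5 CPM in WT. 6330403A02Rik, a gene with only a clone name, had 277, 285 and 246 CPM against 183, 149.8 and 173 CPM, and it was also higher in PS19 (234, 373 and 266 CPM) than in WT (112, 136 and 169 CPM). Their P301S Tia1+/- libraries lay above all WT libraries as well as above all Tia1+/- libraries. Fam19a2, a secreted chemokine-like protein of the brain, had 48.6, 52.2 and 46.3 CPM against 81.97, 102 and 74.3 CPM, and Rgs17, a further G protein regulator, had 111, 111 and 98.2 CPM against 167, 155 and 161 CPM. The P301S Tia1+/- libraries lay below all WT libraries in both.

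Other heat shock genes had differences in both directions. Of 28 cytosolic and mitochondrial heat shock genes tested, 13 had a positive and 15 a negative log2 fold change, and the median was -0.01. Hsph1 was the 1 (3.57%) that passed in the fit of 6 libraries, beside 2.22% of all genes. Hsp90ab1, the abundant constitutive Hsp90 that holds many kinases and tau itself as clients, had 1013, 1099 and 1028 CPM against 1360, 1227 and 1194 CPM, with non-overlapping groups and an adjusted p of 0.226. Hsf1, the transcription factor of the heat shock response, had 17.6, 17.1 and 17.4 CPM against 22.01, 20.1 and 19.6 CPM, and Cryab, a small heat shock protein, had 32.9, 38.99 and 35.4 CPM against 56.03, 52.1 and 37.4 CPM. The groups did not overlap for Hsf1 and overlapped for Cryab. For the 29 ER chaperone and unfolded protein response genes the median was -0.07. Without overlap 3 (10.3%) were higher and 4 (13.8%) lower, beside 14.9% and 11.1% of all genes. None of the 29 passed in the edgeR fits of 12 or of 6 libraries or by DESeq2, and 2 had an unadjusted p under 0.05, both lower. Without Tia1+/- replicate 3 the fit of 5 libraries called 1 higher and 6 lower, beside 27.1% of all genes in either direction. Chac1, a target of that response, had 6.54, 5.94 and 6.42 CPM against 11.8, 11.8 and 7.92 CPM.

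Myelin genes were lower almost throughout. Of the 15 oligodendrocyte and myelin genes, 14 had a negative log2 fold change, 13 were lower without overlap, beside 11.1% of all genes, and the median was -0.52. It was -0.57 without Tia1+/- replicate 3, and it ranged from -0.59 to -0.42 when any of the 6 libraries was left out. Fa2h, which makes the hydroxylated fatty acids of myelin lipids, had 4.72, 4.56 and 6.25 CPM against 11.7, 10.5 and 9.28 CPM. Mag, a myelin adhesion protein that faces the axon, had 88.8, 81.9 and 85.3 CPM against 149.5, 120.0 and 118 CPM, and Mal, a proteolipid of myelin traffic, had 148, 142 and 145 CPM against 231, 198 and 196 CPM. These 3 genes (20% of the list) passed in the fit of 6 libraries, beside 0.771% of all genes called lower. Their adjusted p were 0.0436, 0.0442 and 0.0376, and none passed under the replicate block. At an unadjusted p under 0.05 in the fit of 12 libraries, 8 of the 15 were lower and 0 higher. Over all genes 15.6% had such a p in either direction. DESeq2 called 1 of the list.

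Opalin, a myelin membrane protein of the central nervous system, had 8.24, 6.60 and 8.51 CPM against 16.4, 13.6 and 11.4 CPM, and Myrf, the transcription factor that switches on the myelin genes, had 6.48, 7.62 and 9.22 CPM against 15.3, 10.7 and 10.6 CPM. Summed over the 15 genes the level was 2979, 2790 and 2735 CPM in P301S Tia1+/- and 4628, 3549 and 3593 CPM in Tia1+/-, with no overlap and with Tia1+/- replicate 1 highest. In WT it was 1974, 3032 and 2648 CPM, and lowest in the replicate with the high bulb level. Aspa and Sox10 were the members whose groups overlapped. Sox10, which marks the whole oligodendrocyte lineage, had 10.5, 13.9 and 15.3 CPM against 15.1, 13.1 and 15.3 CPM. Of 7 genes of oligodendrocyte precursors, 6 had a negative log2 fold change and 3 (42.9%) were lower without overlap, beside 11.1% of all genes. The proteoglycan gene Cspg4 had 6.35, 7.32 and 9.76 CPM against 11.3, 10.9 and 12.3 CPM. The transcription factor gene Olig2 had 8.80, 8.76 and 8.27 CPM against 12.97, 10.9 and 11.4 CPM.

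**Figure D3:**
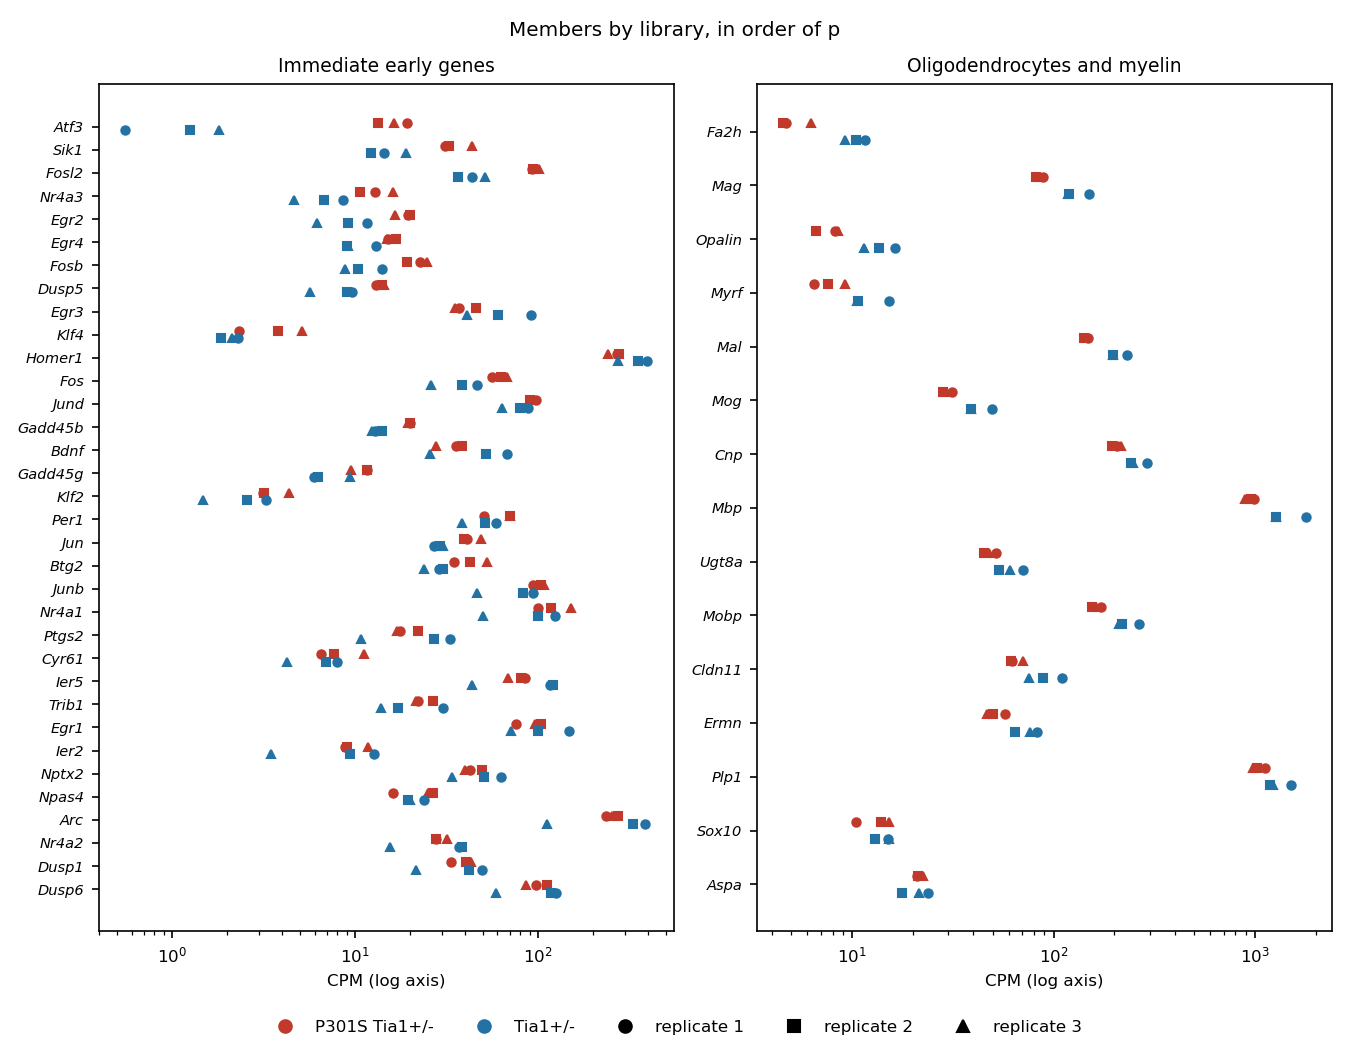
CPM (x axes, log scale) of each immediate early gene and each oligodendrocyte and myelin gene (y axes, in order of p) in the 6 libraries, with colour for the group and a symbol for the replicate number. Of the 34 immediate early genes 15 lie higher in every P301S Tia1+/- library than in every Tia1+/- library, and of the 15 myelin genes 13 lie lower.

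Immediate early genes are switched on within minutes by neuronal firing or growth factors, and many encode transcription factors. Of the 34 tested, 15 were higher without overlap, beside 14.9% of all genes, and 0 were lower, with a median log2 fold change of 0.42. Without Tia1+/- replicate 3 the median was 0.18. Atf3, a stress-induced transcription factor, had 19.2, 13.4 and 16.3 CPM in P301S Tia1+/- and 0.552, 1.25 and 1.80 CPM in Tia1+/-, the largest difference of the list, with a log2 fold change of 3.75, SE 0.83. Sik1, a kinase induced by cAMP, had 31.1, 32.5 and 43.7 CPM against 14.3, 12.2 and 18.9 CPM, and the AP-1 subunits Fosl2 and Fosb had 92.8, 93.2 and 102 CPM against 43.5, 36.7 and 50.96 CPM and 22.6, 19.2 and 24.7 CPM against 14.01, 10.3 and 8.83 CPM. Gadd45b, a stress protein, had 20, 19.9 and 19.4 CPM against 12.8, 14.1 and 12.4 CPM.

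These 5 genes (14.7% of the list) passed in the fit of 6 libraries, beside 1.45% of all genes called higher. Atf3, Sik1 and Fosl2 also passed under the replicate block, with adjusted p of 0.0442, 0.0402 and 0.0420, beside 0.791% of all genes. In WT, Atf3 had 27.8, 7.28 and 1.75 CPM and Fosl2 had 201, 92.6 and 80 CPM, so that both were highest in the WT replicate with the high bulb level. Other members overlapped. Arc, which regulates glutamate receptor uptake at active synapses, had 235, 275 and 252 CPM against 382, 329 and 111 CPM, and Egr3 had 37.2, 46.01 and 35.1 CPM against 91.8, 60.2 and 40.7 CPM. In both, replicates 1 and 2 of Tia1+/- lay above all P301S Tia1+/- libraries, and for Arc replicate 3 lay below them. Without Tia1+/- replicate 3 the fit of the remaining libraries called 13 of the list higher and 8 lower. That fit called 27.1% of all genes in either direction.

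The promoters of 4 of the 5 genes are shown because immediate early promoters are known for the cAMP response element, whose half-site is TGACG. The windows are from RefSeq on GRCm38 and run from 250 bases before to 50 after the start of transcription, written 5′ to 3′ on the gene's strand, with TGACG or its reverse complement CGTCA in capitals.
Atf3, chr1:191183284-191183583, minus strand: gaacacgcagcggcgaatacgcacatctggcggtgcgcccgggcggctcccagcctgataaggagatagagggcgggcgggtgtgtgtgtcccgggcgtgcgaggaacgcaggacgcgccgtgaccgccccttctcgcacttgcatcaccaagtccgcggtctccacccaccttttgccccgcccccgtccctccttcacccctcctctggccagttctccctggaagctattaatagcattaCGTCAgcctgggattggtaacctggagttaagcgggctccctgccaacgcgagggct
Fosl2, chr5:32136222-32136521, plus strand: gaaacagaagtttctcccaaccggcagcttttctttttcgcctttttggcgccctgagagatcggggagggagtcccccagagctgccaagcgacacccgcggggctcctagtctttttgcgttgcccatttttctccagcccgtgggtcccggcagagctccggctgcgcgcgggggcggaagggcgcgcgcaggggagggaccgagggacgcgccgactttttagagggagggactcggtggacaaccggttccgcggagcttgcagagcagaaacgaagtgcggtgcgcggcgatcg
Fosb, chr7:19309996-19310295, minus strand: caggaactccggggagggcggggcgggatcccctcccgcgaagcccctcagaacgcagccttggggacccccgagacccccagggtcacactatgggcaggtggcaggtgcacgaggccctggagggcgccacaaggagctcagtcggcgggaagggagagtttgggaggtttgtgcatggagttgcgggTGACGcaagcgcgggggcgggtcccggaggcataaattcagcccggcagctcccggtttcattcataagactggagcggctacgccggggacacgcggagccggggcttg
Gadd45b, chr10:80929841-80930140, plus strand: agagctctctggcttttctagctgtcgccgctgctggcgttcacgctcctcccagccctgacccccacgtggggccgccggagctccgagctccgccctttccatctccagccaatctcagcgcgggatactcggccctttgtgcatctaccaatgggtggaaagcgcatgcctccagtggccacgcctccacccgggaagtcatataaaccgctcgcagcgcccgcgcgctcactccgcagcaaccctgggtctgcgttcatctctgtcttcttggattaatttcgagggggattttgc
Atf3 held the half-site 1 time, 7 bases before the start, and Fosb 1 time, 60 bases before it, while the windows of Fosl2 and Gadd45b held none. Of the 38 windows found for 26 genes of the list, 22 (57.9%) held the half-site on either strand, against 6837 of 32851 windows of all genes (20.8%). A match is a run of letters and says nothing of binding.

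Neuronal genes were lower in P301S Tia1+/- in part. Of 14 excitatory neuron markers 13 had a negative log2 fold change, with a median of -0.53, but 3 (21.4%) were lower without overlap, beside 11.1% of all genes. None passed in the edgeR fits of 12 or of 6 libraries, 2 had an unadjusted p under 0.05, and DESeq2 called 1, all lower. Beside 27.1% of all genes in either direction, the fit of 5 libraries without Tia1+/- replicate 3 called 1 marker higher and 12 lower. Their summed level was 1920, 2162 and 1828 CPM in P301S Tia1+/- and 3265, 2805 and 1594 CPM in Tia1+/-, with replicate 3 of Tia1+/- below all others. Rorb, of the granular cortical layer, had 53.9, 64.96 and 53.5 CPM against 145, 152 and 59.9 CPM, and Tbr1, of the deep layers, had 29.1, 36.4 and 28.1 CPM against 82.7, 62.6 and 24.4 CPM. In both, replicate 3 of Tia1+/- lay with the P301S Tia1+/- libraries. Tle4, a co-repressor marking corticothalamic cells, was lower without overlap at 63.5, 56.02 and 57.3 CPM against 99.8, 91.4 and 92.01 CPM, with an adjusted p of 0.0186 in the fit of 6 libraries and 0.0442 with the block. Foxp2, a further deep-layer transcription factor, had 14.5, 15.2 and 17.2 CPM against 27.4, 24.4 and 78.2 CPM. Its log2 fold change was -1.47, and -0.73 without Tia1+/- replicate 3, the library with the striatal markers.

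The neurofilament genes Nefm and Nefl and some synapse genes were lower without overlap. Of 12 general neuron genes, 1 (8.33%) was higher and 3 (25%) lower without overlap, beside 14.9% and 11.1% of all genes. The 3 were Nefm, Nefl and Rbfox3, so the neurofilament gene Nefh was not among them. Nefm, the medium neurofilament subunit of large axons, had 36.8, 41.1 and 38.2 CPM in P301S Tia1+/- and 104, 89.6 and 89.8 CPM in Tia1+/-, a log2 fold change of -1.28, SE 0.28, with an adjusted p of 0.175 in the fit of 12 libraries and 0.00920 in the fit of 6. Its partner Nefl had 359.8, 359.9 and 341 CPM against 529, 508 and 375 CPM, also without overlap. Syt2, the calcium sensor of fast release, had 7.36, 10.8 and 9.93 CPM against 42.02, 37.97 and 32.3 CPM, and the potassium channel gene Kcna1 had 192, 222 and 202 CPM against 331, 315 and 335 CPM. In WT, Nefm had 54.8, 115 and 148 CPM and Syt2 had 2.56, 33.7 and 52.9 CPM, lowest in the replicate with the high bulb level. Why they were low in that library was not tested. Tubb3, the neuronal beta-tubulin, went the other way at 492, 452 and 434 CPM against 349, 358 and 351 CPM, as did the alpha-tubulin gene Tuba1a at 1320, 1260 and 1173 CPM against 963, 1027 and 883 CPM. Of 33 genes of synaptic vesicles and release 25 had a negative log2 fold change. Rims2, a scaffold of the release site, Syt2 and Vamp1 passed in the fit of 6 libraries, all lower. They were 9.09% of the list, beside 0.771% of all genes called lower. With the replicate block 2 genes of the list passed, both lower, beside 0.173% of all genes. Rims2 had 240.2, 232 and 224 CPM against 317, 333 and 286 CPM, and Unc13a, which primes vesicles, had 191, 223 and 210.5 CPM against 334, 293 and 209.5 CPM.

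Among receptors and channels the direction was mixed. Of 42 genes of AMPA, NMDA and kainate receptors and their scaffold, 6 (14.3%) were higher and 12 (28.6%) lower without overlap, beside 14.9% and 11.1% of all genes. The median was -0.13, and 4 (9.52%) passed in the fit of 6 libraries, all higher, beside 1.45% of all genes called higher. With the replicate block 1 passed, which was not Homer3, Grin2c or Grm8, at adjusted p of 0.0771, 0.0557 and 0.0656. Homer3, a postsynaptic scaffold protein, had 5.03, 6.60 and 5.71 CPM against 2.76, 2.30 and 2.71 CPM. Grin2c, an NMDA receptor subunit, had 47.4, 46.6 and 51.5 CPM against 29.7, 28.2 and 35.7 CPM, and the metabotropic receptor gene Grm8 had 51.4, 45.6 and 47.6 CPM against 32.6, 32.5 and 24.2 CPM. Gabra5, the alpha subunit of extrasynaptic GABA receptors, had 127, 106 and 119 CPM against 58.8, 56.2 and 59.5 CPM, and 107, 65.3 and 53.3 CPM in WT. Kcnf1, a silent potassium channel subunit, had 246, 247 and 276 CPM against 163, 156 and 151 CPM. Kcnq3, a subunit of the M-type potassium channel, had 37.9, 56.3 and 45.6 CPM against 96.5, 93.3 and 55.1 CPM, with overlapping groups, and did not pass in an edgeR fit.

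Interneuron and peptide genes differed in both directions. Reln, the extracellular guide of neuron layering that is also abundant in the bulb, had 272, 317 and 409 CPM in P301S Tia1+/- and 118, 127 and 147 CPM in Tia1+/-, and Nmb, the peptide neuromedin B, had 34.8, 31.1 and 34.6 CPM against 2.90, 3.48 and 7.22 CPM. Calb2, a calcium-binding protein of bulb granule cells and of some cortical interneurons, had 264, 235 and 266 CPM against 8.76, 11.04 and 76.6 CPM. Lhx6, a transcription factor of cortical interneurons from the medial ganglionic eminence, was lower at 6.04, 5.70 and 5.24 CPM against 16.1, 15.3 and 27.5 CPM. Reln, Nmb and Lhx6 passed in the fit of 6 libraries, and Lhx6 alone of these lost its call under the replicate block, with an adjusted p of 0.0509.

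Of the 13 olfactory bulb genes tested, all 13 had a positive log2 fold change and 12 (92.3%) were higher without overlap, beside 14.9% of all genes. The median was 3.24, and 5.71 without Tia1+/- replicate 3. Trh, Nmb and Shisa3 (23.1% of the list) passed in the fit of 6 libraries, beside 1.45% of all genes called higher. With the replicate block 1 gene of the list passed, beside 0.791% of all genes called higher. Omp, the protein that defines mature olfactory sensory neurons, had 72.6, 135 and 133 CPM against 0.828, 0.854 and 2.83 CPM, and Stoml3, a membrane protein of the same cells, had 6.10, 13.5 and 16.2 CPM against 0.138, 0.131 and 0.322 CPM. The 15 striatal genes tested all had a negative log2 fold change, with a median of -2.30, which became 0.34 without Tia1+/- replicate 3. Pde10a, a phosphodiesterase of striatal neurons, had 56.98, 66.04 and 80.3 CPM against 93.6, 95.7 and 677 CPM. Of the pituitary hormones, Prl had 0.189, 4.38 and 0.714 CPM against 5.66, 16.2 and 33.2 CPM and Gh had 0.126, 2.88 and 0.535 CPM against 1.24, 3.88 and 9.41 CPM.

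**Figure D4:**
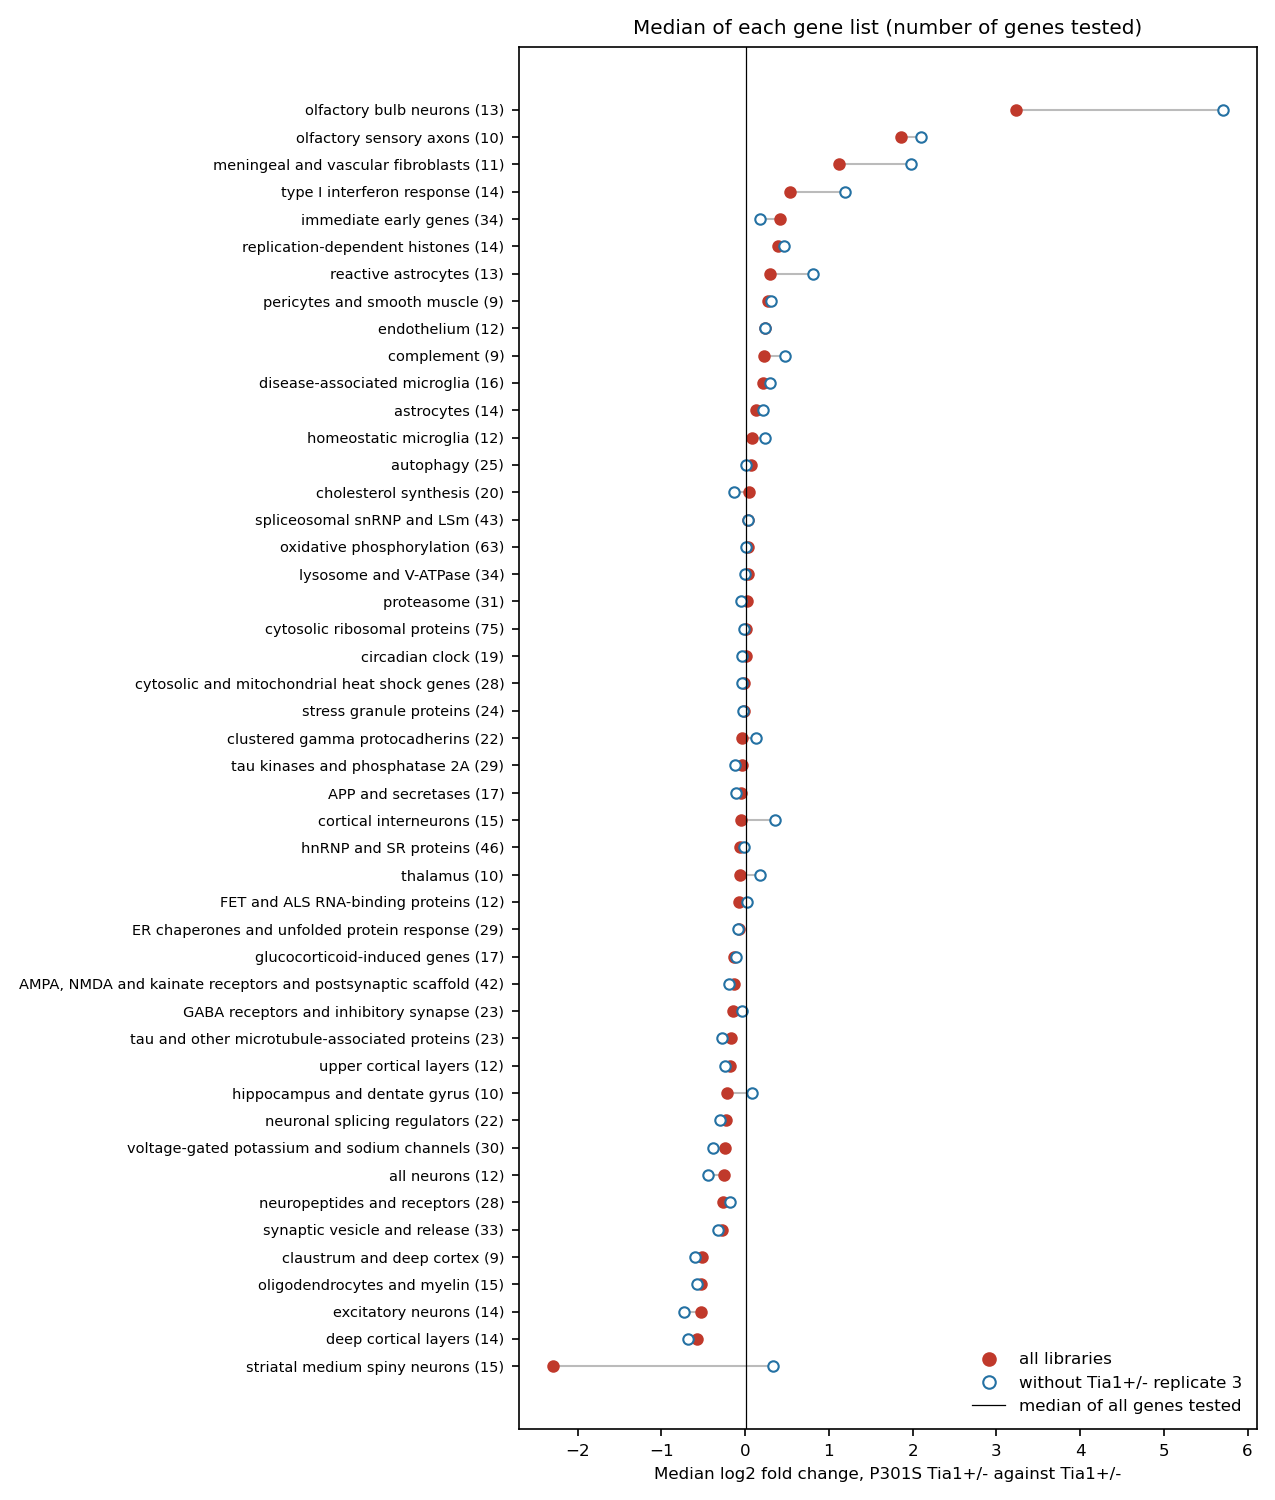
Median log2 fold change of P301S Tia1+/- against Tia1+/- (x axis) for each gene list with 9 or more genes tested (y axis), with all libraries (filled) and without Tia1+/- replicate 3 (open). Olfactory bulb genes have the highest median, 3.24, and the striatal median moves from -2.30 to 0.34.

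RNA-binding proteins are of interest here because TIA1 is among them. Of 24 stress granule genes, 0 were higher and 4 (16.7%) lower without overlap, beside 14.9% and 11.1% of all genes, and the median was -0.01. Atxn2, whose protein joins TIA1 in granules, had 31.3, 39.8 and 35.2 CPM against 51.7, 46.05 and 37.9 CPM, and Atxn2l had 23.4, 25.97 and 32.2 CPM against 35.6, 32.7 and 31.8 CPM. The poly(A)-binding protein genes Pabpc1 and Pabpc4 had 52.3, 56.5 and 54.2 CPM against 73.3, 54.7 and 76.2 CPM and 25.9, 25.8 and 25.6 CPM against 30.5, 27.8 and 34.7 CPM. The groups overlapped for all but Pabpc4. None of the list passed in the edgeR fits of 12 or of 6 libraries or by DESeq2. At an unadjusted p under 0.05 there were 5, all lower. The fit of 5 libraries called 3 higher and 1 lower, beside 27.1% of all genes in either direction. Of 22 neuronal splicing regulators 10 (45.5%) were lower without overlap, beside 11.1% of all genes, and 0 higher, with a median of -0.23. Mbnl1 and Nova1 (9.09% of the list) passed in the fit of 6 libraries, both lower, beside 0.771% of all genes called lower. With the replicate block 1 gene of the list passed, beside 0.173% of all genes called lower. Mbnl1, a splicing factor sequestered in myotonic dystrophy, had 118, 124 and 119 CPM against 166, 151 and 174 CPM. Its relative Mbnl2 had 251, 260.3 and 232 CPM against 349.8, 316 and 322 CPM, Celf2 had 189, 214 and 212 CPM against 275, 239.7 and 260.0 CPM, and the Hu protein gene Elavl2 had 81.5, 78.99 and 67.7 CPM against 132, 119 and 98.1 CPM.

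Of 43 snRNP and LSm genes 5 (11.6%) were higher and 2 (4.65%) lower without overlap, with a median of 0.03. Of 46 hnRNP and SR protein genes 3 (6.52%) were higher and 12 (26.1%) lower, beside 14.9% and 11.1% of all genes, with a median of -0.06, and none of either list passed in the edgeR fits of 12 or of 6 libraries. The fit of 5 libraries called 3 higher and 3 lower in the snRNP list and 4 higher and 5 lower in the hnRNP list. That fit called 27.1% of all genes in either direction. At an unadjusted p under 0.05 the 2 lists had 1 and 3 higher genes and 3 and 8 lower genes, and DESeq2 called 0 and 1. Hnrnpul2 had 142, 150.1 and 149 CPM against 219.6, 165 and 189.9 CPM and Hnrnpd 74.8, 80.6 and 80.4 CPM against 124, 88.5 and 118 CPM. The long non-coding RNA Neat1, the scaffold of paraspeckles, had 11.5, 14.3 and 21.6 CPM against 36.3, 29.04 and 31.96 CPM. The groups did not overlap for Neat1, with an adjusted p of 0.178.

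Genes that act on tau itself gave 2 calls (6.90%) in the fit of 6 libraries, beside 2.22% of all genes. Of 29 tau kinases and phosphatase 2A subunits 3 (10.3%) were higher and 8 (27.6%) lower without overlap, beside 14.9% and 11.1% of all genes. Fyn, a tyrosine kinase that binds and phosphorylates tau, had 149.9, 144 and 141 CPM against 97.8, 92.3 and 99.2 CPM, with an adjusted p of 0.0203. Ppp2r2a, a regulatory subunit of the main tau phosphatase, had 34.8, 39.2 and 39.2 CPM against 66.3, 50.2 and 62.8 CPM, with an adjusted p of 0.0475. Neither passed under the replicate block, at 0.0528 and 0.0814. Gsk3b, a major tau kinase, had 186, 214 and 194 CPM against 287, 238 and 236 CPM and was lower without overlap, with an adjusted p of 0.120 in the fit of 6 libraries. App, the precursor of amyloid beta, had 961, 1049 and 899 CPM against 1581, 1396 and 1098 CPM, and Map7, a partner of kinesin on microtubules, had 51.2, 52.4 and 53.2 CPM against 86.5, 71.4 and 70.9 CPM.

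Of 16 disease-associated microglia genes 5 (31.2%) were higher without overlap, beside 14.9% of all genes, and 1 (6.25%) lower, beside 11.1%. None passed in the edgeR fits of 12 or of 6 libraries, 3 higher and 1 lower genes had an unadjusted p under 0.05, and DESeq2 called 1, lower. The fit of 5 libraries called 3 higher and 1 lower, beside 27.1% of all genes in either direction. In that fit the adjusted p was 5.53e-06 for Spp1. Spp1, osteopontin, had 44.8, 34.7 and 49.02 CPM against 4.49, 6.63 and 18.2 CPM, and Gpnmb had 8.99, 8.70 and 7.14 CPM against 1.93, 1.71 and 4.45 CPM. In WT, Spp1 had 83.3, 14.2 and 8.745 CPM and Gpnmb had 7.28, 2.20 and 1.37 CPM. Both were highest in the WT replicate with the high bulb level. Lpl, the lipoprotein lipase, had 8.18, 9.96 and 7.79 CPM against 16.8, 13.6 and 31.1 CPM. The 12 homeostatic microglia genes had a median of 0.09, with 23.6, 22.3 and 26.5 CPM against 17.1, 16.4 and 25.3 CPM for Tmem119. Of 9 complement genes 0 were higher and 1 (11.1%) lower without overlap, beside 14.9% and 11.1% of all genes. The initiating component gene C1qb had 28.2, 33.6 and 29.4 CPM against 36.3, 37.1 and 48.9 CPM. Among 13 reactive astrocyte genes Serpina3n had 14.8, 16.7 and 18.7 CPM against 7.38, 7.36 and 10.8 CPM and the filament gene Vim 34.3, 36.1 and 48.8 CPM against 16.4, 15.4 and 26.6 CPM. They were the 2 (15.4%) higher without overlap, beside 14.9% of all genes. No gene of this list passed in the fit of 6 libraries, and Vim passed under the replicate block, at an adjusted p of 0.0442. Ifit2, an interferon-induced protein that binds foreign RNA, had 34.8, 31.5 and 33.8 CPM against 22.3, 21.1 and 21.2 CPM. It was the 1 (7.14%) of 14 interferon response genes that passed in the fit of 6 libraries, beside 2.22% of all genes. None of the 14 passed with the replicate block. Genes of meningeal fibroblasts varied within P301S Tia1+/-, with 3.27, 17.2 and 52.7 CPM of Col1a1 against 3.73, 3.15 and 4.51 CPM.

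Genes of protein turnover and energy metabolism had medians close to that of all genes. The median log2 fold change was 0.01 for 75 ribosomal protein genes, 0.03 for 63 oxidative phosphorylation genes, 0.02 for 31 proteasome genes, 0.07 for 25 autophagy genes and 0.03 for 34 lysosome genes. None of these lists held a gene that passed in the edgeR fits of 12 or of 6 libraries. The fit of 5 libraries called 27.1% of all genes in either direction. In these lists, in the same order, it called 1, 2, 1, 0 and 7 genes higher and 0, 0, 2, 4 and 1 lower. At an unadjusted p under 0.05 they held 3, 3, 1, 3 and 6 higher genes and 0, 0, 0, 1 and 0 lower genes, and DESeq2 called 2 higher lysosome genes and none of the others. Ppt1, a lysosomal thioesterase, had 142, 134 and 144 CPM against 109, 113 and 112 CPM and Ctsl, a lysosomal protease, 123, 124 and 128 CPM against 89.6, 107 and 94.8 CPM, both higher without overlap. Of 14 replication-dependent histone genes 6 (42.9%) were higher without overlap, beside 14.9% of all genes, and 0 lower. Hist2h2be was the 1 (7.14%) that passed in the fit of 6 libraries, beside 2.22% of all genes. It had 11.9, 16.9 and 14.6 CPM against 4.97, 6.04 and 6.89 CPM. Npas2, a transcription factor of the circadian clock, was lower at 15.2, 17.2 and 16 CPM against 38.4, 32.2 and 33.95 CPM, with a log2 fold change of -1.11, SE 0.22. Its relative Arntl had 32.3, 35.5 and 31.6 CPM against 52.6, 53.1 and 36.9 CPM.

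Whether the P301S difference depended on Tia1 was tested by subtracting the difference between PS19 and WT from that between P301S Tia1+/- and Tia1+/-. The pairs shared no library. In edgeR's fit of 12 libraries 1 of 15440 genes (0.00648%) passed, and 3535 had an unadjusted p under 0.05. PS19 against WT itself gave 0 genes (0%) in this fit, with 2516 at an unadjusted p under 0.05. The paper, which used DESeq2, reports genes that differ between PS19 and WT at an FDR under 0.05. The 0 therefore holds for the edgeR fit alone. The gene that passed was F630042J09Rik (chr13:67278577-67283361), a gene with only a clone name. It had 0.943, 1.02 and 0.892 CPM in P301S Tia1+/- and 2.07, 1.77 and 2.25 CPM in Tia1+/-, and 2.55, 4.56 and 3.55 CPM in PS19 and 0.640, 0.423 and 0.760 CPM in WT. It was thus lower with P301S tau in Tia1+/- mice, at a log2 fold change of -1.09, SE 0.28, and higher with it in Tia1+/+ mice, at 2.52, SE 0.30, and the libraries overlapped in neither pair. The difference of the effects was -3.60, SE 0.42, with an adjusted p of 0.0466, which was 0.115 with the replicate block. Were the 2 Tia1+/- groups exchanged, as the deposited genotype entries have them, P301S tau would go with higher F630042J09Rik in both pairs and the difference of the effects would be -1.43.

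**Figure D5:**
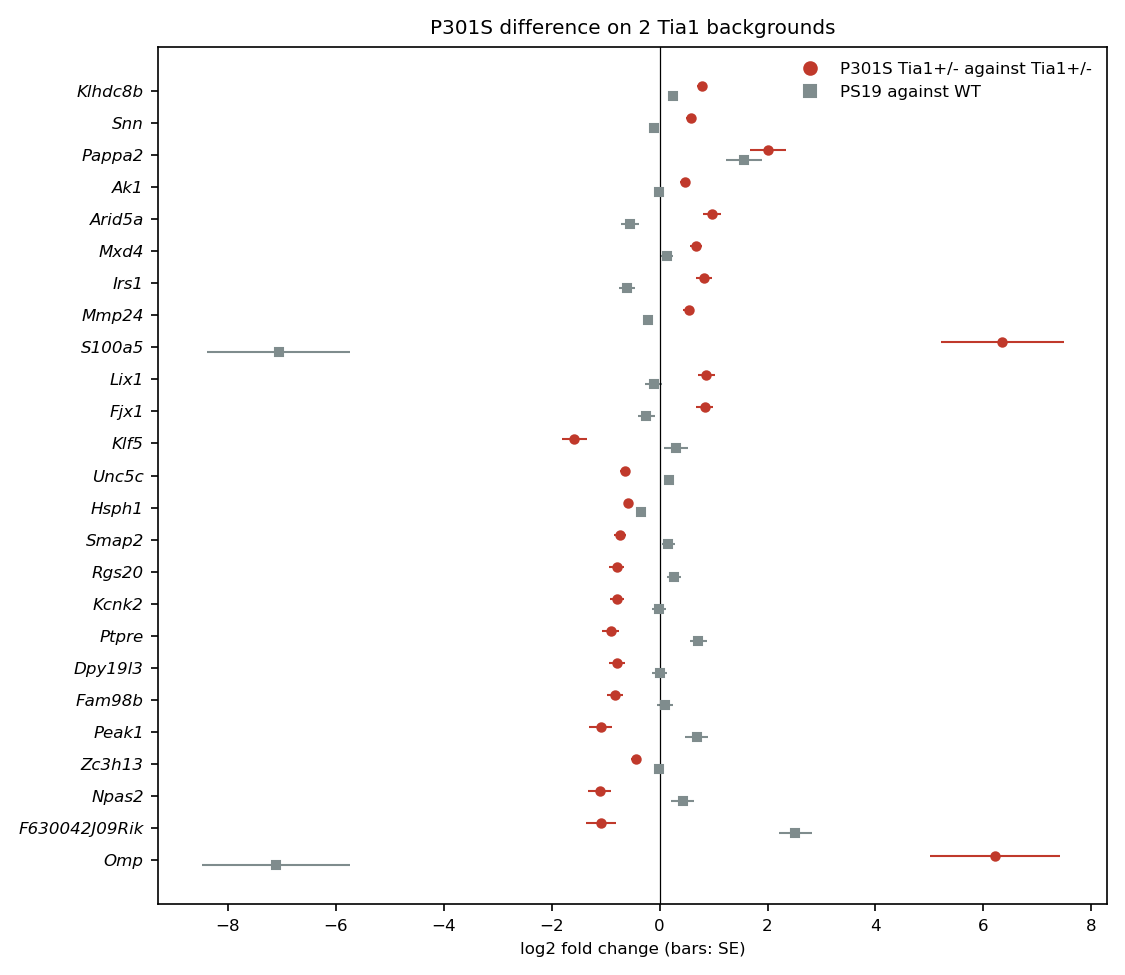
Log2 fold change with its SE (x axis) for P301S Tia1+/- against Tia1+/- and for PS19 against WT, in 23 of the 24 genes with the smallest p and the genes with the smallest p for the difference of effects (y axis). S100a5 and Omp lie on opposite sides of 0, at 6.35 and -7.06 for S100a5, and Pappa2 and Hsph1 lie on the same side in both.

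The next genes by p were S100a5, Ptpre and Omp, which shared an adjusted p of 0.0579. For Ptpre the log2 fold change was -0.91, SE 0.16 in Tia1+/- and 0.72, SE 0.16 in Tia1+/+ mice. For Omp it was 6.22, SE 1.20 and -7.11, SE 1.38, and the bulb markers differed in the same directions, high in P301S Tia1+/- and high in WT replicate 1. With the 2 Tia1+/- groups exchanged, the difference of the effects would be 0.70 for S100a5, 0.19 for Ptpre and 0.89 for Omp, in place of 13.41, -1.62 and 13.33. The medians of the gene lists also had opposite signs in several cases. For myelin the median was -0.52 in Tia1+/- and 0.54 in Tia1+/+ mice, and the latter was 0.34 without WT replicate 1. For immediate early genes it was 0.42 and -0.57, and for olfactory bulb genes 3.24 and -4.66. Without WT replicate 1 the medians in Tia1+/+ mice were -0.58 for immediate early genes and -2.60 for olfactory bulb genes. No gene of these 3 lists passed the test of the difference. The pairs also differed in Xist and the Y-linked genes, in the manner of female against male mice. Tia1 genotype and sex, or the difference in those genes, cannot be told apart in this test.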

How the data were processed

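RNA was sequenced from the cortex of 12 mice, 3 per genotype, with 1 library each, made with a stranded total RNA kit. The authors aligned reads to mm10 with TopHat2 2.0.6, by the submitters' processing notes, and deposited raw read counts per gene symbol from featureCounts. The gene annotation and the strand setting are not given in the sources used here. Of the 24062 symbols, 23685 were placed on GENCODE M21 (GRCm38), with older symbols used for 935.

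These counts were analysed with edgeR 4.0.16 in R 4.3.3 as deposited, with TMM scaling, filterByExpr, a mean per group over all 12 libraries and quasi-likelihood F tests. A gene was called at a Benjamini-Hochberg adjusted p under 0.05 over the 15440 genes tested. With 3 libraries per group the p values measure the spread between mice. Totals ran from 14941823 to 16374226 counts in the 6 libraries. The difference of effects was P301S Tia1+/- minus Tia1+/- less PS19 minus WT. Fold changes are log2 and positive where P301S Tia1+/- was higher. The scripts were tested on simulated data.

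The members and lists were chosen with earlier results of these data known. Named genes were the 12 in each direction with the smallest p among those with a mean of at least 1 CPM over the 6 libraries and no overlap between groups. The rule asked for called genes and let unadjusted p fill in where none was called. Up to 4 genes with the smallest p were named in each list, and the 4 with the smallest p for the difference of effects. Aspa, Sox10, Mal, Arc, Egr3, Fosb, Gadd45b, Nova1, Vamp1 and the exceptions to the comparison of WT libraries were named after their values were seen. Some genes that the rule names are counted but not reported here.

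Same-numbered libraries of the groups had correlations of 0.123, 0.134 and 0.240 between their residuals over genes, each above the limit of 0.1. P301S Tia1+/- replicate 2 and Tia1+/- replicate 1 had 0.128, so these values do not single out the replicate number. The main fit had no block, and the replicate number was entered as a block in alternatives only. The labels do not say what the replicate number marks. Alternatives were DESeq2 1.42.0, other scaling and filters, the 6 libraries alone, the block, offsets for GC content and length, and leaving out each library.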

Additional observations from a re-analysis of the deposited data

Results flagged for a closer look

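F630042J09Rik was singled out because its P301S difference with Tia1+/- and that with both Tia1 alleles differed from each other by a test of that difference in the fit of 12 libraries. The difference of the effects was -3.60, SE 0.42 on the log2 scale, with an adjusted p of 0.0466. All 3 P301S Tia1+/- libraries lay below the Tia1+/- libraries, and all 3 PS19 libraries lay above the WT libraries. The gene was counted at under 5 CPM in every library. Leaving out single libraries gave an adjusted p above 0.05 in 7 of 12 cases, and the replicate block gave 0.115.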

How the results depend on the processing

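Between P301S Tia1+/- and Tia1+/- the fit of 12 libraries called 0 genes with size factors of DESeq2, with no filter, with at least 10 counts in every library, with GC and length offsets, and with the replicate block with or without those offsets, while 2100 to 2660 genes had an unadjusted p under 0.05. It called 0 to 956 when a library was left out, and all but WT replicate 1 gave 0. DESeq2 called 403 genes in the 12 libraries, 1163 in the 6 libraries compared and 915 in these with the replicate block. The edgeR fit of the 6 libraries called 334, 145 with the replicate block, and 0 to 4150 without single libraries. The bulb level as a covariate gave 709, and with the striatal level 91, both added after seeing the data. The difference of effects, with 1 gene called, gave 1216 genes by DESeq2, 5 with no filter, 0 with at least 10 counts in every library, 0 with the replicate block with or without offsets, 795 and 110 with the covariates, and 0 to 1035 without single libraries, namely 408 without Tia1+/- replicate 3, 243, 12 and 1035 without WT replicates 1, 2 and 3. The cause was not tested. Prnp, which was not called in the fits of 12 or of 6 libraries, had a log2 fold change of -0.05, and from -0.28 without Tia1+/- replicate 3 to 0.14 without Tia1+/- replicate 1. Beyond these counts the 24 genes and 4 genes of the difference kept their direction under each alternative run. List medians moved by more than the spread in 41 of 1242 recomputed values. The groups have 3 mice each, the libraries differ in regional markers, and no row holds the transgene.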

Other observations

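Gene groups that mark other cells of the brain gave the following values. Of 12 endothelial genes 10 had a positive log2 fold change, with a median of 0.23. Without overlap 4 (33.3%) were higher and 1 (8.33%) lower, beside 14.9% and 11.1% of all genes. All 4 ependymal genes tested, of the ciliated cells that line the ventricles, were higher without overlap, beside 14.9% of all genes, with a median of 0.96. Tekt1, a component of ciliary microtubules, had 1.76, 1.56 and 1.61 CPM in P301S Tia1+/- and 0.552, 0.657 and 1.16 CPM in Tia1+/-. No gene of either list passed in the edgeR fits of 12 or of 6 libraries or by DESeq2. The fit of 5 libraries without Tia1+/- replicate 3 called 4 endothelial and 2 ependymal genes higher, beside 14.1% of all genes. At an unadjusted p under 0.05 there were 3 endothelial and 1 ependymal gene, beside 15.6% of all genes in either direction. Of 20 cholesterol synthesis genes 12 had a positive log2 fold change, with a median of 0.05. Of 17 glucocorticoid-induced genes 1 (5.88%) passed in the fit of 6 libraries, beside 2.22% of all genes, and the median was -0.13. It was Cdkn1a, an inhibitor of the cell cycle, with 24.8, 22.5 and 22.7 CPM against 13.5, 9.66 and 10.9 CPM. Choroid plexus genes differed in both directions. Aqp1, a water channel, had 13.8, 18.7 and 30.1 CPM against 0.414, 0.394 and 3.16 CPM. It passed in the fit of 6 libraries, at an adjusted p of 0.0472, and under the replicate block, at 0.0442. In WT it had 44.7, 5.75 and 1.60 CPM, highest in the replicate with the high bulb level. Ttr, a carrier of thyroid hormone, had 0.189, 0.480 and 1.43 CPM against 4.69, 15.6 and 3.54 CPM.

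Genes known from the nasal epithelium, picked after their values were seen, were counted in some libraries. Cyp2g1, an olfactory cytochrome, had 3, 92 and 513 counts in the P301S Tia1+/- libraries and 1, 0 and 2 in the Tia1+/- libraries. Bpifb4, a secreted lipid-binding protein, had 6, 116 and 557 counts against 4, 3 and 0. Replicate 3 of P301S Tia1+/- was highest in each. Apold1, an early response gene of blood vessels and neurons, was also picked after its values were seen. It had 47.8, 52.3 and 50.1 CPM in P301S Tia1+/- and 6.14, 4.07 and 7.22 CPM in Tia1+/-, against 96.3, 22.2 and 9.35 CPM in WT and 5.51, 20.97 and 8.73 CPM in PS19, so that WT replicate 1 was highest of all 12 libraries.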
